A study of Rattus norvegicus with 24 samples.

Results

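The genes described here are collagens and laminins of the basement membrane in rat myocardium: Col4a1, Col4a2, Col15a1, Col18a1, Lama2, Lama4, Lamb1, Lamb2, Lamc1 and Nid1. They were taken by gene symbol from the deposited expression tables. Of these 10 genes, 6 were listed in every table (Col4a1, Col15a1, Col18a1, Lama4, Lamb2 and Lamc1), out of 10797 genes listed in any table. Col4a2, Lama2, Lamb1 and Nid1, looked for under these symbols and their synonyms, were not analysed here.

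RNA from myocardium of Sprague-Dawley rats was sequenced after surgery that tore a hole in a mitral leaflet, so that the valve leaked (mitral regurgitation, MR), or after a Sham operation that left the leaflet intact. The 5 Sham libraries were taken 2 weeks after surgery. MR libraries numbered 4 at 2 weeks and 5 each at 10, 20 and 40 weeks. No Sham library was taken later than 2 weeks, so time with MR, age and handling cannot be told apart at 10, 20 and 40 weeks. Whether each library is a separate rat, and which chamber it holds, is not in the labels, so p-values measure the spread between libraries. Each library held 7.69 to 12.1 M reads on listed genes, and the same Sham libraries appear in the table of every MR time.

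The basement membrane is a thin sheet of matrix that surrounds each cardiac muscle cell and underlies the endothelium of every capillary. Laminins, each assembled from an alpha, a beta and a gamma chain, bind receptors on the cell surface and form one network, type IV collagen forms another that is cross-linked, and nidogens and perlecan join them. In the heart the laminin with the alpha-4 chain is typical of vessel walls and the one with the alpha-2 chain of muscle cells, while collagens XV and XVIII sit where the sheet meets the surrounding matrix.

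The upstream sequences below belong to the genes on which the results turn, and differ in the short motifs marked in them. They are the bases just before the annotated start, 5′ to 3′ on the strand of the gene, from RefSeq on build GRCr8, which held a promoter for 9 of the 10 genes (Lamb2 had none). Capitals mark the GC box (GGGCGG or its complement CCGCCC), the CCAAT box (CCAAT or ATTGG) and the TATA box (TATAAA or TTTATA), searched on both strands. Col4a1 and Col4a2 start in opposite directions with 76 bases between their starts, and that interval (chr16:84885521-84885596, plus strand) is given for both. Col15a1 (chr5:66297296-66297545, plus strand) and Lama4 (chr20:43946648-43946897, plus strand) fell, like Col4a1, between 2 and 20 weeks of MR, and Lamc1 (chr13:68051987-68052236, minus strand) rose at 40 weeks.
Col4a1 and Col4a2 interval: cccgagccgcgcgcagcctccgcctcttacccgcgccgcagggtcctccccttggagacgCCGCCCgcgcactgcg
Col15a1: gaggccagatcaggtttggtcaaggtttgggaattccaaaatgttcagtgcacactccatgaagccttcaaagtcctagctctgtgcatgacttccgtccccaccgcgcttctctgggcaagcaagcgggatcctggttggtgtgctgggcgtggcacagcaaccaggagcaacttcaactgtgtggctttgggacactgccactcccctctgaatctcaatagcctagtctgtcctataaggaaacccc
Lama4: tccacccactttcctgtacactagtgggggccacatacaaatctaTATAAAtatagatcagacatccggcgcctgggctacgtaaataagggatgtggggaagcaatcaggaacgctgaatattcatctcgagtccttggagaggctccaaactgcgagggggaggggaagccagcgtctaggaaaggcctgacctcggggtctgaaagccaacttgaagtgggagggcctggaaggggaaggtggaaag
Lamc1: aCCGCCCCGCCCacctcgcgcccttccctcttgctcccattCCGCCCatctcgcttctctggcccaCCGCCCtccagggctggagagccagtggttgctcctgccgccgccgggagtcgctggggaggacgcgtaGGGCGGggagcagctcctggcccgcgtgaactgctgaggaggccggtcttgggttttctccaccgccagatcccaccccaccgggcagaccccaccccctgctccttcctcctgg

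The Lamc1 sequence held 5 GC boxes, of which the first pair share a base, and the interval of the type IV collagen genes held 1. The Lama4 sequence held no GC box and 1 TATA box, which lay near the 5′ end of the sequence and far from the start. The Col15a1 sequence held none of the motifs. In the 250 bases before the start of 33469 rat promoters, 30.5% held a GC box, 34.02% a CCAAT box and 12.9% a TATA box. The interval of the type IV collagen genes, at 76 bases, is shorter than that window. Over 250 bases Col4a1 held 1 GC box and 1 CCAAT box, and Col4a2 held 2 GC boxes and 1 CCAAT box. A match to these letters is a description of the sequence and not a measured binding site.

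At 2, 10 and 20 weeks of MR no gene of the group passed the test against Sham. Between MR times there were differences: at 20 weeks Col4a1, Col15a1 and Lama4 had fallen against MR at 2 weeks. At 40 weeks Lamc1, which encodes the gamma-1 chain found in most laminins, had risen against Sham and against every earlier MR time. Col4a1 and Col18a1 were lower at 40 weeks than in MR at 2 weeks. The call of Col4a1 there held in 4 of 9 fits with 1 library left out. Lamb2, the beta-2 chain, passed in none of these comparisons as tested, but did under some other settings at 40 weeks. Values per library are normalised read counts on a scale common to all 24 libraries, in the order of the replicate numbers; they compare libraries for 1 gene and not 1 gene with another, since no transcript lengths were used.

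**Figure D1:**
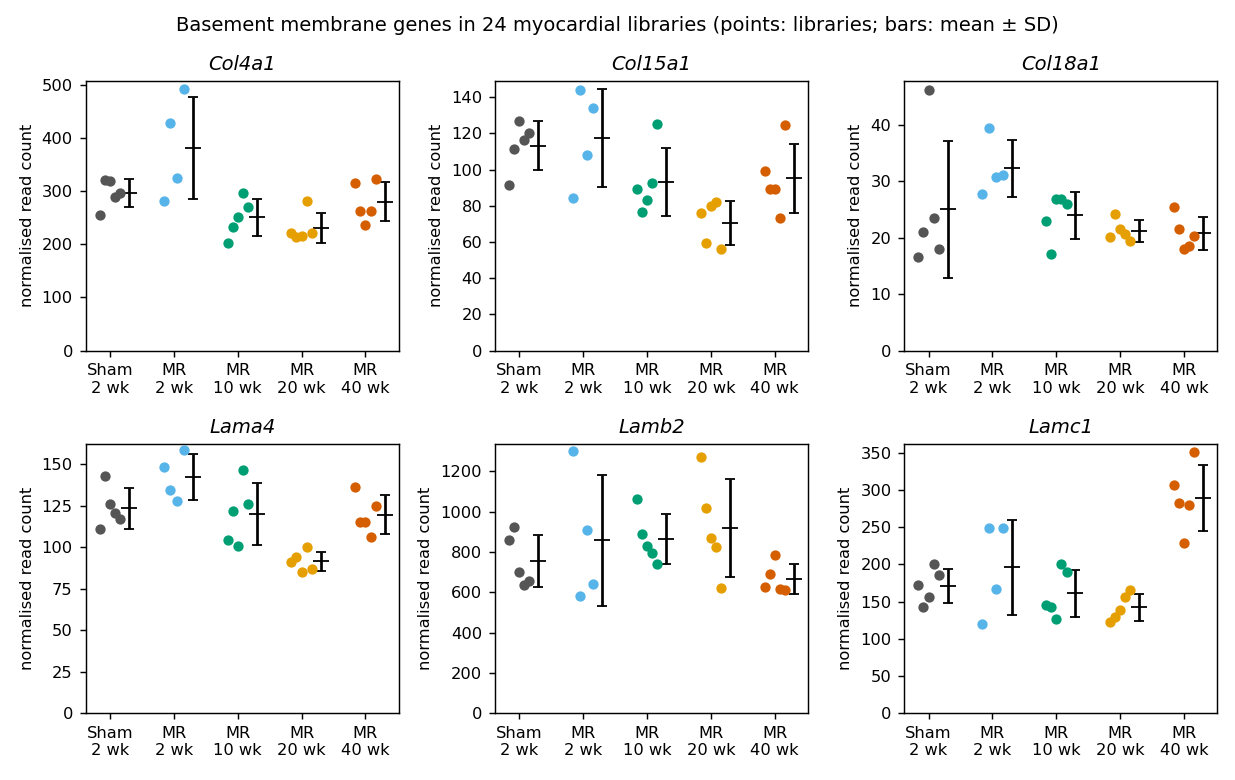
Normalised read count (linear axis from 0) of the 6 measured genes in each of the 24 libraries, by group; points are libraries and the bars beside them are mean ± SD. Lamc1 at 40 weeks lies at 228 to 350.4 and only a pair of libraries of MR at 2 weeks reaches into that range; Lama4 at 20 weeks lies at 85.1 to 99.8, below every library of the other groups.

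Col4a1 (rn6 chr16:83522162-83632154, plus strand) encodes the alpha-1 chain of type IV collagen, which is secreted together with the alpha-2 chain. Sham libraries held 256, 322, 319, 289 and 296 normalised reads of Col4a1. MR libraries held 282, 428, 324 and 492 at 2 weeks, and 203, 233, 250.5, 296 and 269 at 10 weeks. At 20 weeks they held 222, 214, 215, 281 and 221, and at 40 weeks 315, 263, 237, 263 and 323. The MR libraries at 2 weeks were the most spread, and a pair of them were higher than any other library in the series. All 5 libraries at 20 weeks lay below all 4 at 2 weeks. The closest pair, replicate 4 at 20 weeks and replicate 1 at 2 weeks, differed by less than 1 normalised read. By group mean the order was MR at 2 weeks (382 ± 95.9, SD, n = 4), Sham (296 ± 26.8, SD, n = 5), then MR at 40 weeks (280.3 ± 37.2), 10 weeks (250.4 ± 35.2) and 20 weeks (231 ± 28.6, SD, n = 5 each), and no neighbours in that order passed the tests run.

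Col15a1 (rn6 chr5:62840360-62950241, plus strand) encodes a collagen that carries heparan or chondroitin sulfate chains and links basement membranes to the fibrils outside them. Its Sham values were 91.7, 111, 127, 116 and 120.2. After 2 weeks of MR its values were 84.3, 144, 108 and 134, and after 10 weeks they were 89.4, 76.5, 83.1, 92.8 and 125. The 20-week libraries held 76.2, 59.5, 79.9, 82.0 and 56.02, and the 40-week libraries 99.1, 89.5, 89.3, 73.0 and 125. Every library at 20 weeks was below every Sham library and every MR library at 2 weeks, and the group overlapped the libraries at 10 and 40 weeks. The means ran from 118 ± 26.9 in MR at 2 weeks and 113 ± 13.3 in Sham, through 95.1 ± 18.98 at 40 weeks and 93.4 ± 18.7 at 10 weeks, to 70.7 ± 12.1 at 20 weeks.

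Col18a1 (rn6 chr20:12225202-12332859, plus strand) encodes the related collagen XVIII, the source of the fragment endostatin. It had the fewest reads of the 6 genes. Its 5 Sham values ran from 16.6 to 46.1 with a median of 21.0, and the highest, replicate 3, stood apart from the others, which did not exceed 23.4. MR values were 27.8, 39.5, 30.8 and 31.1 at 2 weeks, from 17.2 to 26.9 at 10 weeks, from 19.4 to 24.3 at 20 weeks and from 18.1 to 25.4 at 40 weeks. The MR libraries at 2 weeks were thus above all later MR libraries, while Sham replicate 3 was above them all.

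Lama4 (rn6 chr20:44060715-44201967, plus strand) encodes the alpha-4 chain, the laminin alpha chain typical of capillaries and other vessels. Its Sham values were 111, 143, 126, 120.4 and 117. After 2 weeks of MR its values were 148, 135, 128 and 159, and after 10 weeks they were 104, 122, 101, 147 and 126. The 20-week libraries held 90.8, 94.3, 85.1, 99.8 and 87.0, and the 40-week libraries 136, 115, 115, 106 and 125. The libraries at 20 weeks were below every other library of the study and were also the least spread, with a coefficient of variation of 6.45% against 9.59 to 15.4% in the other groups. The means were 142 ± 13.8 at 2 weeks, 124 ± 12.3 in Sham, 119.9 ± 18.5 at 10 weeks, 119.6 ± 11.5 at 40 weeks and 91.4 ± 5.90 at 20 weeks. The means at 10 and 40 weeks differed by less than either SD.

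Lamb2 (rn6 chr8:117268374-117280515, plus strand) encodes the beta-2 chain. Sham values were 861, 923, 701, 635 and 655. After 2 weeks of MR its values were 1298, 583, 908 and 640.5, and after 10 weeks they were 1063, 887, 831, 795 and 738. The 20-week libraries held 1272, 1020.1, 867, 823 and 619.9, and the 40-week libraries 625, 691, 785, 616 and 613. The groups overlapped throughout, and the spread within MR at 2 weeks (coefficient of variation 38.0%) and at 20 weeks (26.4%) was wider than in the other groups (11.1 to 17.1%).

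Lamc1 (rn6 chr13:70656727-70783516, minus strand) encodes the gamma-1 chain. Sham values were 172, 143, 156, 199.996 and 186. After 2 weeks of MR its values were 119.7, 249, 167 and 248.5, and after 10 weeks they were 146, 143, 127, 199.96 and 190.1. The 20-week libraries held 123, 129.6, 138, 156 and 166, and the 40-week libraries 307, 282, 228, 280.0 and 350.4. All 5 libraries at 40 weeks were above all Sham libraries and all those at 10 and 20 weeks on this scale. The means were 289 ± 44.5 at 40 weeks, 196 ± 63.8 at 2 weeks, 171 ± 22.9 in Sham, 161 ± 31.9 at 10 weeks and 143 ± 18.05 at 20 weeks, and below the first of these no neighbours passed the tests run.

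Each MR time was tested against Sham in its own deposited table with limma, with Benjamini-Hochberg adjustment over all genes of the table and a threshold of 0.05 on the adjusted p. Differences are log2 values with their SE, on the scale log2(value + 1). The 4 comparisons use the same 5 Sham libraries and are therefore not independent of each other.

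At 2 weeks none of the 6 genes passed, where 0.00% of the 10173 genes tested did. The largest differences were 0.36 ± 0.24 for Col18a1 (adjusted p = 0.840) and 0.25 ± 0.19 for Col4a1 (adjusted p = 0.843). For Col4a1 the 95% interval of the difference ran from -0.16 to 0.66. The other 4 genes lay between -0.05 (Col15a1) and 0.12 (Lama4). At an unadjusted p under 0.05, 5.47% of all genes and none of the 6 passed.

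At 10 weeks none passed either, where 0.168% of 10096 genes did. Differences ran from -0.22 ± 0.15 for Col15a1 (adjusted p = 0.598) to 0.27 ± 0.16 for Lamb2 (adjusted p = 0.545). The median over the 6 genes was -0.01, beside 0.06 over all genes.

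At 20 weeks no gene of the group passed, where 0.0698% of 10025 genes did. In this table Col15a1 was 74.9, 63.8, 79.6, 81.0 and 52.9 in MR against 95.8, 109, 120.9, 122 and 119 in Sham, and the groups did not overlap. Its difference was -0.69 ± 0.14 (adjusted p = 0.0986), with a 95% interval of -0.99 to -0.40. Lama4 was 89.2, 101, 84.8, 98.6 and 82.2 in MR against 116, 141, 120.3, 126 and 116 in Sham, again without overlap. Its difference was -0.44 ± 0.11 (adjusted p = 0.229). These 2 of 6 genes were lower without overlap, as were 1.30% of all genes tested. At an unadjusted p under 0.05, 3 of 6 passed (Col15a1, Lama4 and Col4a1, the last at -0.37 ± 0.12), beside 9.49% of all genes. DESeq2 on whole reads recovered from the values called Col15a1 (adjusted p = 0.00105) and Lama4 (adjusted p = 0.00340) lower, where limma and edgeR called neither. The median over the 6 genes was -0.32, beside -0.00271 over all genes.

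At 40 weeks 2 of 6 genes passed, where 47.3% of 10094 genes did (16.3% higher and 30.9% lower), so passing was not particular to this group. In this table Lamc1 was 283, 249, 213, 252 and 288 in MR against 184, 140.5, 146, 216 and 187 in Sham. Only the lowest MR library, replicate 3, fell within the Sham range. Lamc1 rose by 0.57 ± 0.15 (adjusted p = 0.00780), and the rise passed under all 10 other settings and without any 1 library. Col15a1 was 91.4, 79.1, 83.4, 65.8 and 102 in MR against 97.8, 109.6, 119, 125 and 121 in Sham, with replicate 5 of MR inside the Sham range. Col15a1 fell by 0.45 ± 0.14 (adjusted p = 0.0164), but this call was lost under 5 of 10 settings.

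The fall of Col15a1 depended on scale. The median difference of all genes at 40 weeks was -0.15 in the deposited values and -0.01 after the libraries were rescaled by median ratios, with 1648 genes higher and 3124 lower before and 2391 higher and 2196 lower after. Rescaled in that way, Col15a1 differed by -0.29 (adjusted p = 0.112), and edgeR gave -0.26 (adjusted p = 0.176). The other 4 genes were all below 0 and did not pass: Lamb2 at -0.36 ± 0.17 (adjusted p = 0.0948, and 0.0451 without replicate 3 of MR), Col18a1 at -0.34, Col4a1 at -0.27 and Lama4 at -0.23. Lamc1 was the 1 gene of 6 above 0, and the median of the 6 was -0.31.

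**Figure D2:**
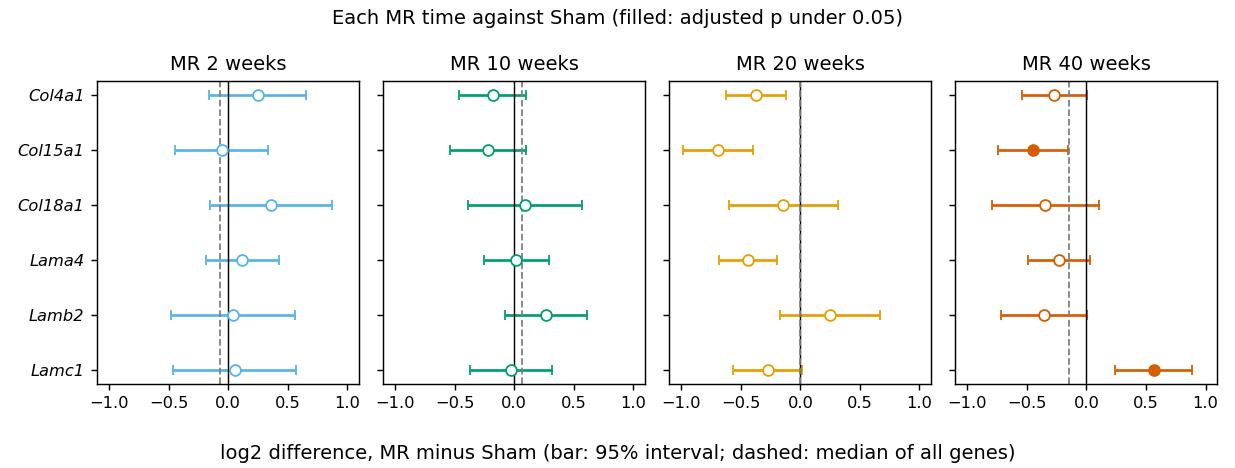
Difference of each gene between MR and Sham at the 4 times (log2, points, with 95% intervals; filled where the adjusted p is under 0.05; dashed line, median of all genes tested). No point is filled at 2, 10 or 20 weeks, and at 40 weeks Lamc1 (0.57) and Col15a1 (-0.45) are filled; the latter was lost on other scales.

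The MR times were tested against one another in 1 limma fit of all 24 libraries and 9984 genes on the common scale. Between 2 and 20 weeks 3 of 6 genes fell and none rose, where 8.81% of all genes passed and 4.81% were called lower. Lama4 fell by 0.63 ± 0.11 on the log2 scale (adjusted p = 0.00172). Col4a1 fell by 0.70 ± 0.15 (adjusted p = 0.00679). Col15a1 fell by 0.71 ± 0.17 (adjusted p = 0.0124). All 3 calls held in 7 of 7 other settings and after leaving out any of the 9 libraries. Col18a1 was lower without overlap as well, at -0.58 ± 0.20, and narrowly missed the threshold (adjusted p = 0.0653). These 4 of 6 genes were lower without overlap, beside 5.57% of all genes, whose median difference was -0.01 while that of the 6 genes was -0.60.

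The steps within that interval were less clear. Between 2 and 10 weeks Col4a1 fell by 0.58 ± 0.15 (adjusted p = 0.0468), where 1.37% of all genes passed and 1.07% were called lower, but the call held in only 4 of 7 other settings and in 2 of the 9 fits that left out 1 library. Between 10 and 20 weeks none of the 6 genes passed, where 0.0100% did. Lama4 was lower without overlap in that step (-0.38 ± 0.11, adjusted p = 0.225), as were 1.42% of all genes.

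Between 20 and 40 weeks 3 of 6 genes rose, where 38.8% of all genes passed and 21.3% were called higher. Lamc1 rose by 1.01 ± 0.17 (adjusted p = 1.04e-04), a 2.02-fold difference, with no overlap. Lama4 rose by 0.38 ± 0.11 (adjusted p = 0.00721), also with no overlap, which 13.2% of all genes showed in that direction. Both calls held in every setting and without any 1 library. Col15a1 rose by 0.42 ± 0.16 (adjusted p = 0.0428), a call that was kept in 4 of 10 fits with 1 library left out and lost when libraries were scaled to equal totals. Lamb2 went the other way at -0.43 ± 0.19 without passing (adjusted p = 0.0807). With library weights in limma it was called lower at 40 weeks, at -0.42 against 20 weeks (adjusted p = 0.0154) and -0.40 against 10 weeks (adjusted p = 0.0201), and so it was against 10 weeks with only those 2 groups in the fit (-0.37, adjusted p = 0.0311). Against 20 weeks it also passed without replicate 5 of MR at 20 weeks, its lowest library there (-0.57, adjusted p = 0.0225).

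Against 10 weeks, Lamc1 was the 1 gene of 6 that passed at 40 weeks, where 54.2% of all genes did and 28.1% were called higher. It rose by 0.85 ± 0.17 (adjusted p = 2.87e-04) with no overlap, beside 20.9% of all genes higher without overlap. Against 2 weeks, 3 of 6 genes passed at 40 weeks, where 45.7% of all genes did (24.3% higher and 21.3% lower). Lamc1 rose by 0.61 ± 0.18 (adjusted p = 0.0101) and Col18a1 fell by 0.61 ± 0.20 (adjusted p = 0.0151). Col4a1 fell by 0.42 ± 0.15 (adjusted p = 0.0250), which held in 4 of 9 fits with 1 library left out. The call of Lamc1 against 2 weeks was lost without replicate 1 of MR at 2 weeks, its lowest library there, and under equal totals, and that of Col18a1 was lost without replicate 2 of MR at 2 weeks, its highest.

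**Figure D3:**
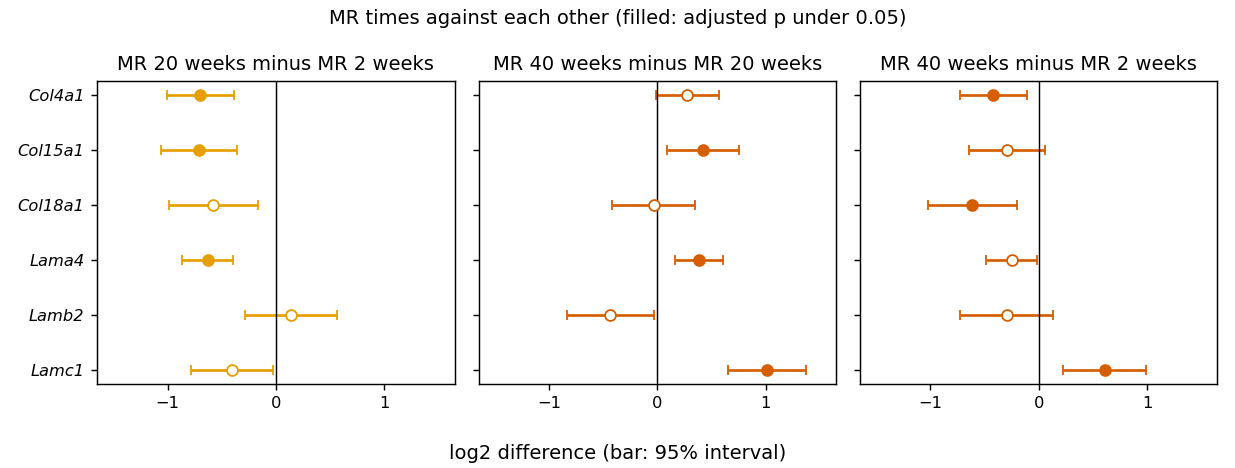
Difference of each gene between MR times (log2, points, with 95% intervals; filled where the adjusted p is under 0.05). Between 2 and 20 weeks Col4a1, Col15a1 and Lama4 lie at -0.63 to -0.71, and between 20 and 40 weeks Lamc1 lies at 1.01 while Lamb2 lies at -0.43 and is not filled.

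Ratios within a library do not depend on how that library was scaled, and they show unequal change and not which gene moved. The ratio of Lamc1 to Col4a1 was 0.963 to 1.08 in the 5 libraries at 40 weeks. In Sham it was 0.444 to 0.691, and in MR it was 0.424 to 0.582 at 2 weeks, 0.507 to 0.717 at 10 weeks and 0.553 to 0.751 at 20 weeks. The libraries at 40 weeks thus stood apart from the 4 other groups, which overlapped one another. The ratio of Lamc1 to Lama4 separated in the same way, at 1.98 to 2.81 at 40 weeks and no higher than 1.90 in any other library. The ratio of Lamc1 to Lamb2 was 0.291 to 0.572 at 40 weeks and overlapped with Sham (0.155 to 0.315) and with MR at 2 weeks (0.0922 to 0.427). These ratios were chosen after the values were seen and carry no test.

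The ratio of Col15a1 to Col18a1 was set for testing, by an exact two-sided permutation test over libraries adjusted over the 4 times. The log2 ratio was 2.28 ± 0.48 in Sham (SD, n = 5) and 1.84 ± 0.21, 1.96 ± 0.26, 1.72 ± 0.30 and 2.18 ± 0.28 in MR at 2, 10, 20 and 40 weeks. None of the differences passed in the exact permutation test (adjusted p = 0.317 at 2, 10 and 20 weeks and 0.738 at 40 weeks). The wide Sham spread came from replicate 3, in which Col18a1 stood apart. Without it the differences were -0.64, -0.52 and -0.76 at 2, 10 and 20 weeks, with p = 0.0381, 0.0317 and 0.0317 in the same exact permutation test, adjusted over the 4 times. At 40 weeks the difference without it was -0.296 and did not pass. That library was singled out by its Col18a1 value, which enters the ratio, so the passes without it are a description.

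Within groups, Lamb2 and Lamc1 varied in opposite directions from library to library. In MR at 2 weeks the library with the most Lamb2 (1298) had the least Lamc1 (119.7), and the library with the least Lamb2 (583) had the most Lamc1 (249). The highest Lamb2 and lowest Lamc1 also fell in the same library in Sham and in MR at 20 and 40 weeks, and so did the lowest Lamb2 and highest Lamc1; MR at 10 weeks was the exception. With each group centred on its own mean, Pearson's r over the 24 libraries was -0.833 and Spearman's rho -0.837 (permutation within groups, adjusted p = 4.5e-04 and 6e-04 over 15 pairs). Without the pair of libraries farthest from the median of Lamb2, r was -0.775. Within each group r was -0.995 in MR at 2 weeks, -0.950 at 20 weeks, -0.859 at 40 weeks, -0.747 in Sham and -0.550 at 10 weeks, each over 4 or 5 libraries and given with no test.

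**Figure D4:**
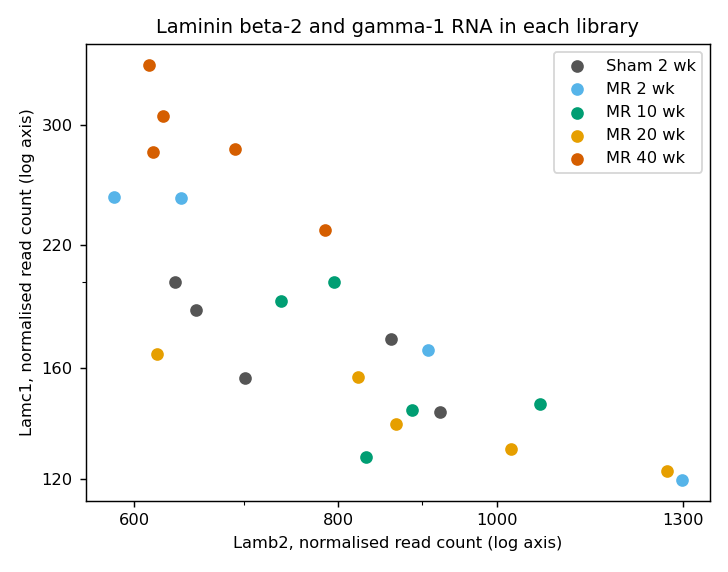
Lamc1 against Lamb2 in the 24 libraries (normalised read counts, both axes logarithmic; colours are the groups). Libraries with more Lamb2 have less Lamc1 within groups, and the 40-week libraries lie higher in Lamc1 than the other groups at a like Lamb2.

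Col4a1 was the other gene that varied against Lamb2, less closely. It varied with Lamc1 (r = 0.718, rho = 0.646, adjusted p = 0.0187 and 0.0316 by permutation), with Col15a1 (r = 0.687, rho = 0.696, adjusted p = 0.0187 and 0.0170) and with Lama4 (r = 0.602, rho = 0.578, adjusted p = 0.0187 and 0.0316), and against Lamb2 (r = -0.634, rho = -0.655, adjusted p = 0.0345 and 0.0219). Without the 2 libraries farthest in Col4a1 these r were 0.573, 0.615, 0.700 and -0.481. Lama4 and Lamb2 gave r = -0.0389 and rho = -0.130 (adjusted p = 0.858 and 0.568 by permutation). In all, 7 of 15 pairs passed by Pearson's r, Col15a1 with Col18a1 only just (adjusted p = 0.04997 by permutation). The share of all gene pairs that pass was not measured. Neither this count nor the r of Lamb2 and Lamc1 can therefore be called particular to these genes.

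Depth and marker sums were set beside the Lamb2 and Lamc1 values in the same way, 22 relations in all, chosen after the pair had been seen. Reads per library gave r = -0.143 with Lamb2 and 0.133 with Lamc1 (rho = -0.141 and 0.118, adjusted p = 0.702 and 0.681 for each by permutation). The summed adipocyte markers, of which only Fabp4, Cfd and Lipe were measured, followed Lamb2 (r = 0.789, adjusted p = 0.00572, rho = 0.696, adjusted p = 0.0711 by permutation, r = 0.707 without the 2 farthest). For Lamc1 the same sum gave r = -0.660 and rho = -0.604 (adjusted p = 0.0538 and 0.149 by permutation). Fabp4, which makes up most of that sum, is also made by capillary endothelium, so the sum does not mark adipocytes alone. The endothelial sum gave r = 0.404 for Lamb2 and -0.246 for Lamc1 (adjusted p = 0.420 and 0.621 by permutation). Its rho was 0.421 and -0.325 (adjusted p = 0.358 and 0.483 by permutation). No relation but that of the adipocyte sum with Lamb2 passed by r, and none passed by rho. The fibroblast sum gave r = -0.560 with Lamb2 and 0.600 with Lamc1 (rho = -0.477 and 0.521, adjusted p = 0.110 and 0.183 for each by permutation). The part of these cells in the Lamb2 and Lamc1 pattern was not tested.

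The 5 genes whose values followed Col4a1 most closely within groups over the 24 libraries were Fbn1 (r = 0.84), Pxdn (r = 0.83), Cilp (r = 0.81), Loxl1 (r = 0.76) and Cd93 (r = 0.75). Fbn1 encodes fibrillin-1 of microfibrils, Pxdn the peroxidase that forms the sulfilimine cross-links of type IV collagen, Cilp a matrix protein, Loxl1 a lysyl oxidase of elastic fibres and Cd93 an endothelial receptor. The libraries are of the same tissue and these r are the highest among genes outside the group, so they are a description.

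Other components of the sheet were taken from a list of 30 genes, of which 20 were tested. None passed against Sham at 2, 10 or 20 weeks. At 20 weeks 15 of 20 were below 0, with a median of -0.17 beside -0.00271 over all genes. The smallest p belonged to Sparc (-0.56), Nid2 (-0.47), Pxdn (-0.46) and Hmcn1 (-0.66). Against MR at 2 weeks, 4 of 20 fell at 20 weeks and none rose, where 8.81% of all genes passed. Those were Nid2, the other nidogen, by 0.94 ± 0.20 (adjusted p = 0.00544), Sparc, a collagen-binding protein, by 0.81 ± 0.17 (adjusted p = 0.00528), Pxdn by 0.79 ± 0.20 (adjusted p = 0.0159) and hemicentin Hmcn1 by 0.95 ± 0.30 (adjusted p = 0.0445). They were named because they passed.

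At 40 weeks 1 of these 20 genes rose against Sham and 6 fell, a smaller share than the 47.3% of all genes that passed, with a list median of -0.21 beside -0.15 over all genes. Ntn4, netrin-4, which binds the laminin gamma-1 chain, rose by 1.64 ± 0.20 (adjusted p = 1.58e-04), from 6.06 ± 1.86 in Sham to 20.9 ± 5.13 in MR. Sparc fell by 1.13 ± 0.17 (adjusted p = 2.81e-04), from 1279 ± 173 to 585 ± 96.2. Hmcn1 fell by 0.83 and agrin (Agrn), which links laminin to dystroglycan, by 0.70. After median-ratio rescaling 1 was higher and 4 lower, beside 2391 higher and 2196 lower of all 10077 genes.

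Receptors and adaptors that hold the cell to the sheet gave 0 of 26 genes at 2 weeks, 0 of 26 at 10 weeks and 0 of 25 at 20 weeks. At 40 weeks 8 of 26 rose and 5 fell against Sham, a share near that of all genes (47.3%). After median-ratio rescaling 12 rose and 1 fell, beside 2391 higher and 2196 lower of all 10077 genes. Lims1, an adaptor of the integrin-linked kinase complex, rose by 1.32 ± 0.19 (adjusted p = 2.49e-04), while the kinase Ilk fell by 0.73 ± 0.14 (adjusted p = 9.12e-04). Itga1, the integrin chain that binds type IV collagen, rose by 1.03 ± 0.24 (adjusted p = 0.00358), from 5.04 ± 1.596 to 11.5 ± 4.05. Gpc1, a heparan sulfate proteoglycan of the cell surface, rose by 1.14 ± 0.23 (adjusted p = 0.00132). From 20 to 40 weeks, where 38.8% of all genes passed, 12 of 26 rose and 1 fell, among them the laminin-binding integrin chain Itga6 (0.70 ± 0.14, adjusted p = 5.53e-04) and dystroglycan Dag1 (0.77 ± 0.19, adjusted p = 0.00290), 2 genes chosen after their values were seen.

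Of genes for collagen folding, secretion and cross-linking, none passed at 2, 10 or 20 weeks. At 20 weeks the smallest p belonged to Serpinh1, the collagen chaperone, at -0.54, the lysyl oxidases Loxl2 and Loxl1 at -0.76 and -0.70, and the prolyl 4-hydroxylase chain P4ha2 at 0.38. Against MR at 2 weeks 3 of 21 fell at 20 weeks (8.81% of all genes passed): Loxl2, which cross-links type IV collagen, by 1.35 ± 0.27 (adjusted p = 0.00451), Serpinh1 by 0.77 ± 0.19 (adjusted p = 0.0153) and the lysyl hydroxylase Plod2 by 0.66 ± 0.20 (adjusted p = 0.0400). At 40 weeks 3 of 21 rose against Sham and 4 fell, again a smaller share than the 47.3% of all genes. Ppib, a prolyl isomerase, fell by 1.16 ± 0.17 (adjusted p = 2.92e-04), and the prolyl 3-hydroxylases P3h3 and P3h1 fell by 1.01 and 0.65. Sec23a, of the coat that carries procollagen from the endoplasmic reticulum, rose by 1.32 ± 0.20 (adjusted p = 2.99e-04).

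Enzymes that build the laminin-binding sugar of dystroglycan gave 0 of 14 at 2, 10 and 20 weeks. At 40 weeks 3 of 14 were higher and 2 lower, beside 47.3% of all genes. After median-ratio rescaling 6 were higher and 2 lower, beside 2391 higher and 2196 lower of all 10077 genes. Dpm3 fell by 0.84 ± 0.18 (adjusted p = 0.00218) and Dpm2 by 0.64 ± 0.15 (adjusted p = 0.00311), both subunits of the mannose donor synthase. At 20 weeks B3galnt2 was at 0.37, Pomgnt2 at 0.29 and B4gat1 at 0.21, and none of these passed.

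**Figure D5:**
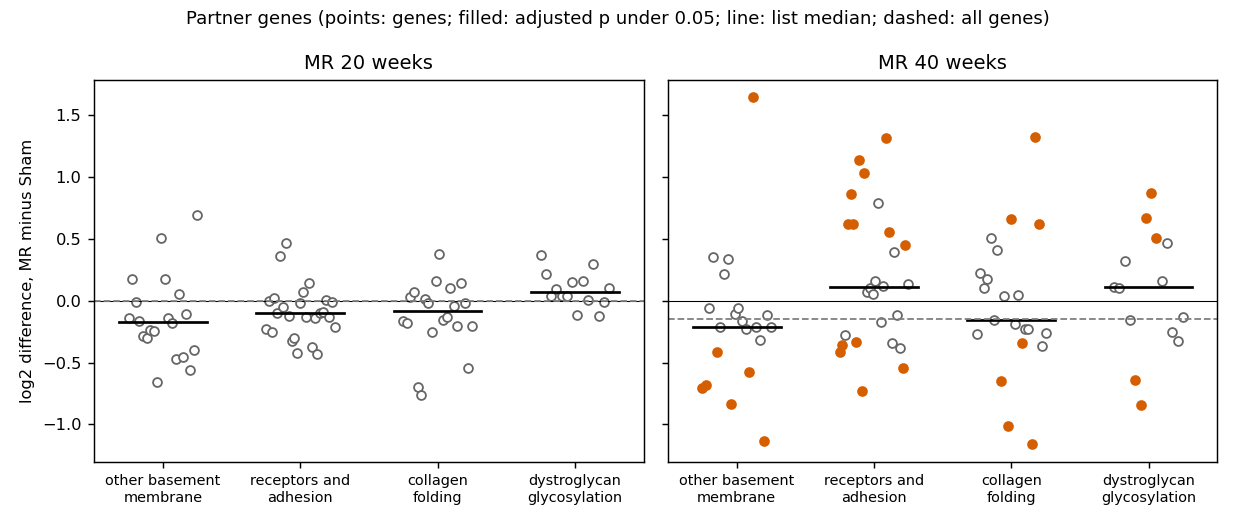
Difference between MR and Sham of the tested genes in 4 lists of partners (log2; points are genes, filled where the adjusted p is under 0.05; black line, list median; dashed line, median of all genes). At 20 weeks no point is filled; at 40 weeks filled points lie on both sides of 0, from Ppib (-1.16) to Ntn4 (1.64).

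Cell type markers were read beside these results, since in tissue RNA fewer cells of a type and less RNA per cell cannot be told apart. Against Sham, no marker list had a gene that passed at 2, 10 or 20 weeks. The 17 endothelial markers were below 0 in 16 at 20 weeks (median -0.20, beside -0.00271 over all genes). Their sums were 1983 to 2422 in MR and 2097 to 2635 in Sham. Of the 15 pericyte and smooth muscle markers 9 were below 0 (sums 369 to 502 in MR and 393 to 760.5 in Sham), and of the 17 fibroblast markers 14 (2105 to 2865 and 2424 to 4176). Below 0 at 20 weeks were also 10 of 12 macrophage, 5 of 6 red blood cell and 2 of 2 mesothelial markers. In other lists fewer were below 0, with 4 of 14 cardiomyocyte, 1 of 6 atrial, 1 of 7 Schwann cell and 0 of 3 adipocyte markers. None of these markers was at 0 in a library, since every listed gene had reads in every library. From 2 to 20 weeks of MR, 8.81% of all genes passed and 4.81% were called lower. Of the endothelial markers 1 of 17 fell there (Tie1, -0.54). Of 17 fibroblast markers 6 fell, with Col1a1 at -1.999 and Col3a1 at -1.77, and 1 rose (Gsn, 1.01). In the same comparison 1 of 15 pericyte and smooth muscle markers (Mcam, -0.96), 2 of 12 macrophage markers (Aif1, -0.89, and Cd14, -0.73) and 1 of 3 mesothelial markers (Krt8, -1.28) fell, and 2 of 14 cardiomyocyte markers rose (Mb, 0.65, and Pln, 0.54). Their part in the falls of Col4a1, Col15a1 and Lama4 was not tested.

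At 40 weeks against Sham, 9 of 17 endothelial, 7 of 15 pericyte and smooth muscle and 9 of 17 fibroblast markers fell, and 1, 3 and 1 rose, beside 30.9% of all genes lower and 16.3% higher. After median-ratio rescaling 6, 5 and 5 fell and the same numbers rose, beside 2196 lower and 2391 higher of all 10077 genes. Their medians were -0.54, -0.56 and -0.60 in the deposited values, beside -0.15 over all genes. After rescaling they were -0.38, -0.41 and -0.47, beside -0.01 over all genes. Lamc1 was at 0.57 in the deposited values, and the part of these cells in its rise was not tested. Cardiomyocyte markers gave 2 higher and 6 lower of 14, and macrophage markers 0 higher and 6 lower of 12. Atrial markers gave 1 higher and 1 lower of 6, Schwann cell markers 0 and 1 of 6, mesothelial markers 0 and 1 of 2, adipocyte markers 0 and 2 of 3, and red blood cell markers 0 and 0 of 6. Cardiomyocyte markers, which define the labelled tissue, were present in every library, with sums of 43408 to 73206.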

How the data were processed

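Myocardial RNA of 24 libraries was sequenced on an Illumina platform, per the labels' protocols. The submitters' processing notes name Partek and the rat build rn6; aligner, annotation, counting and strand have no statement in the labels or tables used. The deposited unit is signal: linear normalised read counts in 4 tables, each holding 1 MR time and the same 5 Sham libraries. Between 97.4 and 97.5% of a file's values came within 0.1 read of a whole read once 1 factor per library was undone, so the count of reads was recovered. A gene needed reads in every library to be listed.

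Each MR time was tested against Sham with limma 3.58.1 (R 4.3.3) on log2(value + 1), for genes with a mean of at least 1, two-sided, with Benjamini-Hochberg adjustment and a threshold of 0.05. Such a log2 difference understates the change of low genes. MR times were compared in 1 limma fit after median-ratio rescaling. edgeR 4.0.16 and DESeq2 1.42.0 on recovered reads were alternatives; at 2 weeks edgeR called 0 genes, and DESeq2 called 53 higher and 12 lower. Replicate numbers follow accession order and pair nothing. Permutation tests of correlation used 100000 resamples within groups. The limma procedure was tested on simulated data. Sequences are from RefSeq GRCr8. Gene coordinates are rn6, as the tables give them.

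Members and gene lists were chosen with earlier results of these data known. Named are all members, up to 4 genes with the smallest p per partner list at 20 and 40 weeks, and the 5 genes most like Col4a1; some genes that this rule names are not reported here. That rule was written for the mean of Col4a1 and Col4a2, and 4 of 5 planned ratios need genes that were not analysed here.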

Additional observations from a re-analysis of the deposited data

Results flagged for a closer look

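In 30 sets of libraries (6 genes in 5 groups), 2 held a library far from the others of its group; chance gives about 1 in 20. Col18a1 was 46.1 normalised reads in Sham replicate 3, where the other 4 Sham libraries held 16.6 to 23.4, and the ratio of Col15a1 to Col18a1 against Sham passes at 2, 10 and 20 weeks by the exact permutation test, adjusted over the 4 times, only without it. Col4a1 was 281 in replicate 4 of MR at 20 weeks, where the other 4 held 214 to 222.

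The difference between MR times itself passed for 11 of 36 pairs of gene and time; over all genes 0.0100 to 54.2% passed in these 6 comparisons. Of the 11, 7 are against 40 weeks, where 38.8 to 54.2% of all genes passed. For Col4a1 it was -0.58 between 2 and 10 weeks, -0.70 between 2 and 20 weeks and -0.42 between 2 and 40 weeks. For Lamc1 it was 1.01 between 20 and 40 weeks, 0.85 between 10 and 40 weeks and 0.61 between 2 and 40 weeks. For Lama4 it was -0.63 between 2 and 20 weeks and 0.38 between 20 and 40 weeks. For Col15a1 it was -0.71 between 2 and 20 weeks and 0.42 between 20 and 40 weeks, and for Col18a1 -0.61 between 2 and 40 weeks. These are log2 differences from the limma fit of all 24 libraries.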

How the results depend on the processing

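Over the 6 genes and the 10 comparisons, 447 of the values under other settings kept direction and side of the threshold, 16 passed only then, 11 no longer passed and 18 changed sign; with 1 library left out these were 517, 5, 20 and 34. The cause of these changes was not tested.

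Against Sham, the number of genes lower at 20 weeks was 2 by DESeq2 in place of 0, and at 40 weeks it was 0 in place of 1 under median-ratio rescaling, equal totals, edgeR, DESeq2 and the fit of all libraries. Between 2 and 10 weeks, 0 genes were lower in place of 1 with a pseudocount of 0.1, a mean of at least 10 or only the 2 groups, and 4 with library weights. With weights, 5 were lower in place of 3 between 2 and 20 weeks, 1 in place of 0 in the steps from 10 to 20, 20 to 40 and 10 to 40 weeks, and 4 in place of 2 between 2 and 40 weeks. With only the 2 groups, 1 was lower between 10 and 40 weeks and 1 between 2 and 40 weeks, and with equal totals 0 were higher there in place of 1.

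Signs changed where the difference was small. Col15a1 at 2 weeks was 0.016 with median ratios, 0.023 by edgeR, 0.035 by DESeq2, 0.032 in the fit of all libraries, 0.121 with equal totals and 0.129 with weights. Lamb2 at 2 weeks was -0.209 with weights. Lama4 at 10 weeks was -0.0599 with median ratios, -0.0304 with equal totals, -0.0460 by edgeR, -0.0526 by DESeq2 and -0.0503 in the fit of all libraries, and Col18a1 was -0.0685 by edgeR and -0.0721 by DESeq2. With equal totals Lamb2 was -0.0265 between 10 and 20 weeks and -0.0252 between 2 and 20 weeks, and between 10 and 40 weeks Col15a1 was -0.0614 and Lama4 -0.0822.

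With 1 library left out, differences from Sham at 2 weeks ranged from -0.174 to 0.0961 for Col15a1, -0.183 to 0.187 for Lamb2 and -0.0933 to 0.271 for Lamc1. At 10 weeks they ranged from -0.0132 to 0.306 for Col18a1, -0.0549 to 0.0672 for Lama4 and -0.111 to 0.0413 for Lamc1, and at 20 weeks from -0.247 to 0.0766 for Col18a1. Lamb2 ranged from -0.0893 to 0.295 between 2 and 10 weeks, -0.0640 to 0.197 between 10 and 20 weeks and -0.0252 to 0.357 between 2 and 20 weeks. Col18a1 ranged from -0.106 to 0.0125 between 20 and 40 weeks, and between 10 and 40 weeks Col15a1 ranged from -0.0764 to 0.133 and Lama4 from -0.0552 to 0.0780. The log2 ratio of Col15a1 to Col18a1 differed from Sham by -0.635 to -0.316, -0.520 to -0.200, -0.756 to -0.436 and -0.296 to 0.0231 at 2, 10, 20 and 40 weeks. The genes lower were 0 to 1 between 2 and 10 weeks, 0 to 3 between 2 and 40 weeks (0 to 1 higher), 0 to 1 between 20 and 40 weeks (2 to 3 higher), 3 to 4 between 2 and 20 weeks and 1 to 2 at 40 weeks against Sham.

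Over all genes, against Sham, the other settings called 0 to 53 genes higher and 0 to 12 lower at 2 weeks (0 and 0 in the reported test), 3 to 58 and 0 to 27 at 10 weeks (16 and 1), 4 to 46 and 0 to 47 at 20 weeks (7 and 0), and 886 to 2514 and 1778 to 3308 at 40 weeks (1648 and 3124). Between MR times, library weights gave the highest counts from 2 to 10 weeks, 538 higher and 647 lower (30 and 107 in the reported test), and from 10 to 20 weeks, 399 and 363 (0 and 1). The ranges were 150 to 715 higher and 254 to 996 lower from 2 to 20 weeks (400 and 480), and 1165 to 2694 and 1239 to 2438 from 20 to 40 weeks (2122 and 1753).

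No paired analysis was possible because the labels number the Sham and MR libraries in separate series that run on across the times, so no number marks a shared animal or batch. Recovered reads of 7.69 to 12.1 M per library set the counting error, and 4 or 5 libraries in a group limit which differences can pass. All Sham libraries are from 2 weeks, so later times differ from Sham in age as well as in MR. Only genes with reads in every library of a table are listed.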
